A study of Mus musculus with 6 samples.

Results

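The 10 genes described here encode the MHC class II antigen presentation machinery, measured in 6 libraries of sorted T follicular helper (Tfh) cells. They were chosen by name and by role: the classical class II chains (H2-Aa, H2-Ab1 and H2-Eb1), the invariant chain (Cd74), the peptide exchange factor DM (H2-DMa, H2-DMb1 and H2-DMb2), its inhibitor DO (H2-Oa and H2-Ob), and the class II transactivator (Ciita). All 10 were found among the 14744 genes of the deposited table, with symbols matched without regard to case, and all 10 were among the 11296 genes tested, which had to reach 10 or more in 3 or more libraries.

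In the study, Bach2, a transcriptional repressor, was deleted in T cells to ask what it does in Tfh cells and autoimmunity. WT mice were compared with Bach2fl/fl Cd4-cre mice (Bach2-cKO), with 3 libraries in each group, all labelled C57BL/6 and, by the methods, on a C57BL/6J background. The WT controls are described as littermates carrying Cd4-Cre, a deleter that acts in cells with Cd4 promoter activity, which in the thymus includes precursors of CD8 T cells. Mice were 2 to 3 months old, and 10000 to 30000 CD4+B220-CD44+PD-1+CXCR5+ cells per library were sorted from the mesenteric lymph nodes (MLNs). No treatment is named for either group. Neither the labels nor the methods say that the libraries of a group came from separate animals, so p-values measure the spread between these samples, which may be technical. The libraries are named WT1 to WT3 and cKO1 to cKO3 after their labels.

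Each value is the number of reads of a gene divided by a size factor of its library, so values can be compared between libraries for 1 gene. Between genes, levels are compared here only per kilobase of exon. The values of a library summed to between 7361229 and 8135325. Read numbers were used for 5 libraries, all but WT1, and ran from 5045131 in cKO1 to 10987752 in cKO2.

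WT1 stood apart from the other libraries. It had 11648 genes above 0, whereas the other 5 libraries had between 13111 and 13567. Its weight, estimated from how far each library's genes fell from their group means, was 0.206, the lowest of the 6, followed by cKO3 at 0.421. The fold changes of the 10 genes, their relations with Cd74 where they changed, and the counts in other gene lists are therefore given with and without WT1. The highest weights were 5.54 in cKO2 and 2.51 in WT3, against 1.04 in WT2 and 0.791 in cKO1. Fits with library weights thus rest mainly on a single library in each group, cKO2 and WT3.

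The deleted gene itself went against the labels. Bach2 was at 233, 222 and 105 in WT1, WT2 and WT3, and at 399, 763 and 591 in cKO1, cKO2 and cKO3. Every library labelled Bach2-cKO was thus above all those labelled WT, and limma gave a log2 fold change of 1.68 ± 0.37 (SE) with a Benjamini-Hochberg adjusted p of 0.140. A gene value sums the reads of all exons, and which exons were flanked by loxP is not given in the sources used here, so the value does not check the deletion. All directions below are drawn between libraries labelled Bach2-cKO and libraries labelled WT, with this reservation. Markers of the sorted population were present in all 6 libraries: Cd4 lay between 2407 and 4131, Cxcr5 between 1271 and 2207, Pdcd1 between 1462 and 2708, and Bcl6 between 342 and 818.

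MHC class II molecules present peptides from endosomes to CD4+ T cells. In mice they are made mainly by B cells, dendritic cells, macrophages and thymic epithelium, and mouse T cells are generally regarded as making little or none of their own, although they can acquire the proteins from antigen-presenting cells. The α and β chains assemble on the invariant chain, which guides them to endosomes, and DM then exchanges the remaining invariant chain fragment for peptide under restraint from DO. Transcription of most of these genes depends on Ciita, which is recruited by the RFX, CREB and NF-Y proteins bound at the conserved X and Y boxes of their promoters.

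The X and Y box segments of 4 promoters are shown, each with its motifs in capitals. Whether shared motifs go with shared movement between libraries was not tested. The sequences are from RefSeq, mouse build GRCm38.p6, written 5′ to 3′ on the strand of the gene. They lie outside annotated exons, upstream of the annotated gene for H2-Aa (chr17:34287859-34287905, minus strand), H2-Eb1 (chr17:34305770-34305820, plus strand) and H2-Ob (chr17:34238812-34238860, plus strand), and within the annotated gene for H2-DMb2 (chr17:34145120-34145171, plus strand), where a longer transcript starts further upstream.
H2-Aa: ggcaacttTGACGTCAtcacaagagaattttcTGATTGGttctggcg
H2-Eb1: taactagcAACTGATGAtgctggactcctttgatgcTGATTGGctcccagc
H2-Ob: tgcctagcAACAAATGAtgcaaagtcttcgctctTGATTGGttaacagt
H2-DMb2: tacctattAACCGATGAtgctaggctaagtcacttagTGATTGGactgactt

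The capitals mark TGATTGG, the Y box core, and upstream of it either AACNNATGA, letters of the X box, or, in H2-Aa, TGACGTCA, a CREB site. These letters were chosen after the sequences had been read. The 2 motifs were 16 bases apart in H2-Aa, 17 in H2-Ob, 19 in H2-Eb1 and 20 in H2-DMb2. On either strand, TGATTGG was present in 7.82% of all 32851 promoter windows of 250 bases before to 50 after a start site, AACNNATGA in 2.85% and TGACGTCA in 1.79%. The X letters followed by the Y letters at a distance of 10 to 40 bases on the strand of the gene occurred in 7 windows, or 0.0213%: those of H2-DMb1, H2-DMb2, H2-Eb1, H2-Ob, BC051142, Gm34733 and Bscl2. The window of H2-Oa held TGATTGG without the X letters, and neither of 2 windows of H2-DMa held any of these motifs. H2-Ab1, Cd74 and Ciita had no entry. A match describes these letters only and does not show that a factor is bound.

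By group mean per kilobase of exon, the classical chains came next to Cd74 in level, although in cKO3 H2-DMa was above H2-Eb1. H2-Aa, which encodes the α chain of I-A (chr17:34282744-34287823, minus strand), was at 4608, 5877 and 3402 in WT1 to WT3 and at 2464, 4498 and 1774.5 in cKO1 to cKO3. H2-Ab1, the β chain of I-A (chr17:34257689-34269419, plus strand), was at 4406, 4509 and 3239 in the WT libraries and at 2211, 3930.5 and 1417 in the libraries labelled Bach2-cKO. For both genes WT2 was highest and cKO3 lowest, and the groups overlapped because cKO2 lay above WT3. The log2 fold change on the log2(value + 1) scale was -0.74 ± 0.33 (SE) for H2-Aa and -0.80 ± 0.33 (SE) for H2-Ab1, with adjusted p of 0.241 and 0.218 by limma. Unadjusted, the limma p was 0.0479 and 0.0362, and it was above 0.05 for both genes without any 1 of WT1, WT2, cKO1 and cKO3. Both log2 fold changes were -0.44 without cKO3, and with library weights they were -0.03 and -0.07. In these bulk samples, fewer cells of a type that expresses a gene and less RNA per cell cannot be told apart.

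H2-Eb1, the β chain of I-E (chr17:34305867-34316674, plus strand), was at 2357, 2076 and 1262 in the WT libraries and at 1525, 2240.0 and 773 in cKO1 to cKO3. C57BL/6 mice are known to make no I-E on the cell surface, because their H2-Ea gene is defective, although H2-Eb1 is transcribed. Here cKO2 lay between WT1 and WT2, and WT3 lay below cKO1, so the groups overlapped widely, and the log2 fold change was -0.41 with a 95% confidence interval from -1.24 to 0.42. Its direction turned with library weights (0.42) and without cKO3 (0.011).

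Cd74, the invariant chain, had the lowest p of the 10 genes. It was at 10856, 13382 and 9236 in WT1 to WT3 and at 3251.5, 8453 and 3279 in cKO1 to cKO3. All 3 libraries labelled Bach2-cKO were below all 3 WT libraries, but cKO2 came close to WT3 whereas cKO1 and cKO3 were far lower. The group means were 11158 ± 2090 (SD, n = 3) and 4994 ± 2995 (SD, n = 3), a 2.23-fold lower mean in the libraries labelled Bach2-cKO. By limma the log2 fold change was -1.30 ± 0.35 (SE), with a 95% confidence interval from -2.07 to -0.53 and an adjusted p of 0.142, which did not pass the threshold of 0.01. Without WT1 it was -1.31 and without cKO2, the library nearest to WT, it was -1.76. With library weights, which give cKO2 the largest weight of 5.54, it shrank to -0.54. On the 5 libraries without WT1, DESeq2 gave -1.21 with an adjusted p of 0.0439, and edgeR gave -1.19 with an adjusted p of 0.181. Neither passed the threshold of 0.01. Mir5107 overlaps 12 exonic bases of the gene on the same strand.

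**Figure D1:**
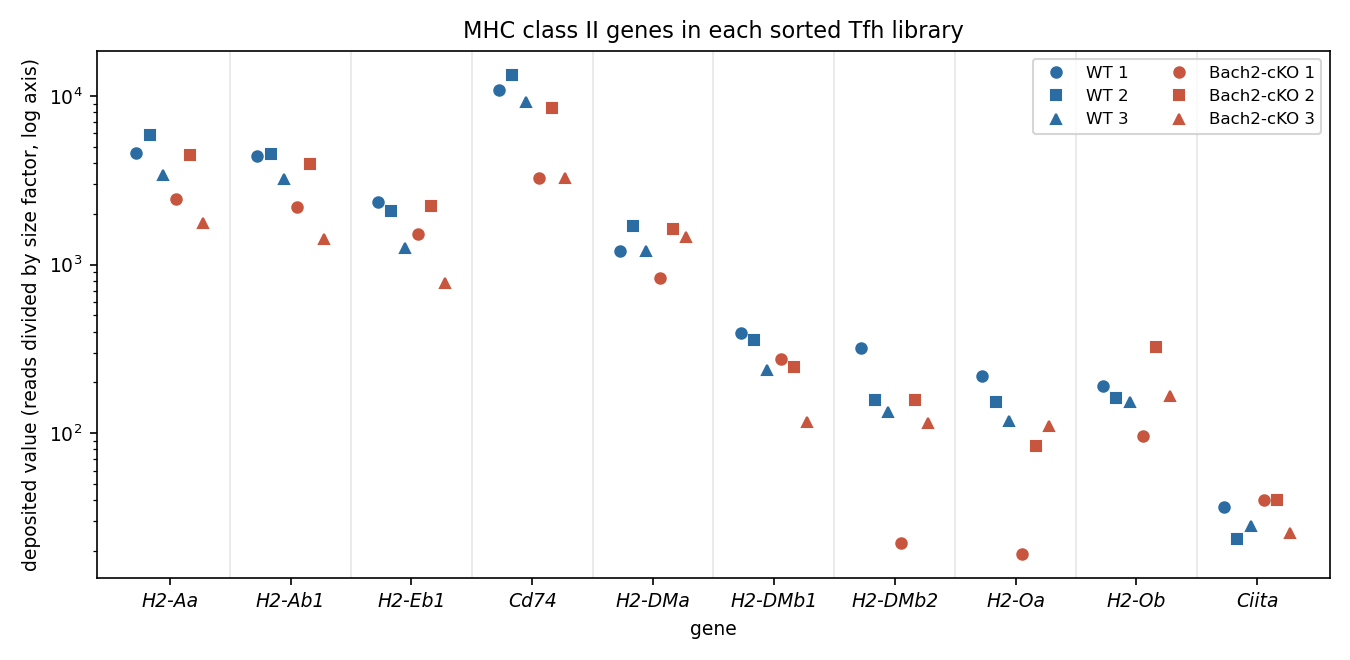
Deposited value of each of the 10 genes (log axis) in each of the 6 libraries, with WT in blue and libraries labelled Bach2-cKO in red, and 1 marker shape per replicate number. For Cd74 and H2-Oa the red points all lie below the blue points, whereas for the other 8 genes the groups overlap.

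The DM genes had log2 fold changes of different size, but differences between them were not tested. H2-DMa was at 1201, 1690 and 1205 in the WT libraries and at 837, 1626 and 1465 in cKO1 to cKO3. The groups overlapped, and its log2 fold change of -0.10 turned positive under 4 of 19 alternatives, among them quantile normalization (0.0028). H2-DMb1 was at 391, 357 and 237 in WT1 to WT3 and at 276, 248 and 117 in cKO1 to cKO3, with overlapping groups, cKO3 lowest and a log2 fold change of -0.68 ± 0.38 (SE), which was -0.29 without cKO3 and -0.19 with library weights.

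H2-DMb2 was at 321, 158 and 133 in the WT libraries and at 22.2, 157 and 115 in cKO1 to cKO3. A single library was thus far below the rest. The 15 reads of cKO1 give a 95% exact Poisson interval from 12.4 to 36.6 on the value, which lies below all other libraries; it covers counting error only. The log2 fold change was -1.34 ± 0.68 (SE), and it was -0.49 without cKO1 and -0.25 with library weights. H2-DMb1 and H2-DMb2 are near copies, with 22.7% of the 50-base words of H2-DMb1 exons also found in H2-DMb2, so the division of reads between them is uncertain. The ratio of H2-DMb1 to H2-DMb2 was 12.5 in cKO1 and between 1.02 and 2.26 in the other libraries.

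Of the DO genes, H2-Oa was at 217, 154 and 118 in WT1 to WT3 and at 19.2, 83.8 and 110 in cKO1 to cKO3. The groups did not overlap, although cKO3 came close to WT3, and cKO1, with 13 reads, was again far below the rest. The log2 fold change was -1.46 ± 0.62 (SE) with an adjusted p of 0.227 by limma, and without cKO1 it was -0.71, with library weights -0.86. H2-Ob was at 190, 163 and 153 in the WT libraries and at 96.1, 324 and 167 in cKO1 to cKO3, where cKO1 was the lowest and cKO2 the highest of all 6. Its log2 fold change of 0.05 turned negative with quantile normalization (-0.027), without WT3 (-0.020) and without cKO2 (-0.40). It rose to 0.77 with library weights and to 0.47 without cKO1.

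Ciita had the lowest level per kilobase of the 10 genes. It was at 36.3, 23.6 and 28.1 in the WT libraries and at 39.9, 40.2 and 25.6 in cKO1 to cKO3. The groups overlapped, with 21 to 60 reads in the 5 libraries where read numbers were used. The log2 fold change was 0.25 with a 95% confidence interval from -1.08 to 1.57, and it turned to -0.45 once a trend with gene length and GC content was removed. At this depth no difference in Ciita was detectable, and the interval does not show that its level was alike.

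Per kilobase of exon, the mean level in the WT libraries was 6646 for Cd74, 1578 for H2-Ab1, 1219 for H2-Aa, 977 for H2-Eb1, 396 for H2-DMa, 195 for H2-DMb1, 117 for H2-DMb2, 116 for H2-Oa, 31.3 for H2-Ob and 3.08 for Ciita. In the libraries labelled Bach2-cKO the mean per kilobase was 2975 for Cd74, 981 for H2-Ab1, 778 for H2-Eb1 and 767 for H2-Aa. Cd74 had the highest level per kilobase in each of the 6 libraries and Ciita the lowest, whereas the libraries of neighbouring genes such as H2-Ab1 and H2-Aa, or H2-DMb2 and H2-Oa, overlapped. The strand used in counting is not given in the sources used here, so reads of genes on the opposite strand may be included: Brd2 overlaps 360 exonic bases of H2-DMa, BC051537 overlaps 321 of H2-Oa and Dexi overlaps 329 of Ciita.

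Across the 10 genes, 8 had a negative log2 fold change, compared with 45.25% of all genes tested. The median was -0.71, against 0.08 for all genes tested. None of the 10 passed the limma threshold of adjusted p under 0.01 and a change over 2-fold, nor did any of the 11296 genes (0%), of which 1144 were higher and 1157 lower at an unadjusted p under 0.05. At that level, 4 of the 10 genes were lower (Cd74, H2-Ab1, H2-Oa and H2-Aa) beside 10.2% of all genes, and 0 were higher beside 10.1%. In 2 of the 10 (Cd74 and H2-Oa) every library labelled Bach2-cKO was below every WT library, as in 12.2% of all genes, and 0 were above in this way, compared with 14.6%. On the whole reads of the 5 libraries without WT1, edgeR called 0 genes, with 1079 higher and 991 lower at an unadjusted p under 0.05, and DESeq2 called 33 higher and 57 lower (0.797%), of which 0 were among the 10.

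Without WT1, the log2 fold change was -0.73 for H2-Aa, -0.73 for H2-Ab1, -0.23 for H2-Eb1, -0.18 for H2-DMa, -0.54 for H2-DMb1, -0.96 for H2-DMb2, -1.23 for H2-Oa, 0.14 for H2-Ob and 0.41 for Ciita, and the median of the 10 genes was -0.63. The count of 4 rested on single libraries. It was 1 without WT1, beside 9.43% of all genes lower in the same fit, 1 without WT2 (10.2%), 1 without cKO1 (5.36%), 2 without cKO3 (14%), 4 without WT3 (7%) and 5 without cKO2 (5.92%). It was also 1 with values scaled to equal totals (8.22%). With library weights, which rest mainly on cKO2 and WT3, it was 0 (22.8%) and the median of the 10 genes was -0.05. Scaling to equal totals moved the background too, to 1402 genes higher and 929 lower, and removing the trend with length and GC content gave 549 higher and 1088 lower and shifted the median of all genes from 0.08 to -0.04.

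**Figure D2:**
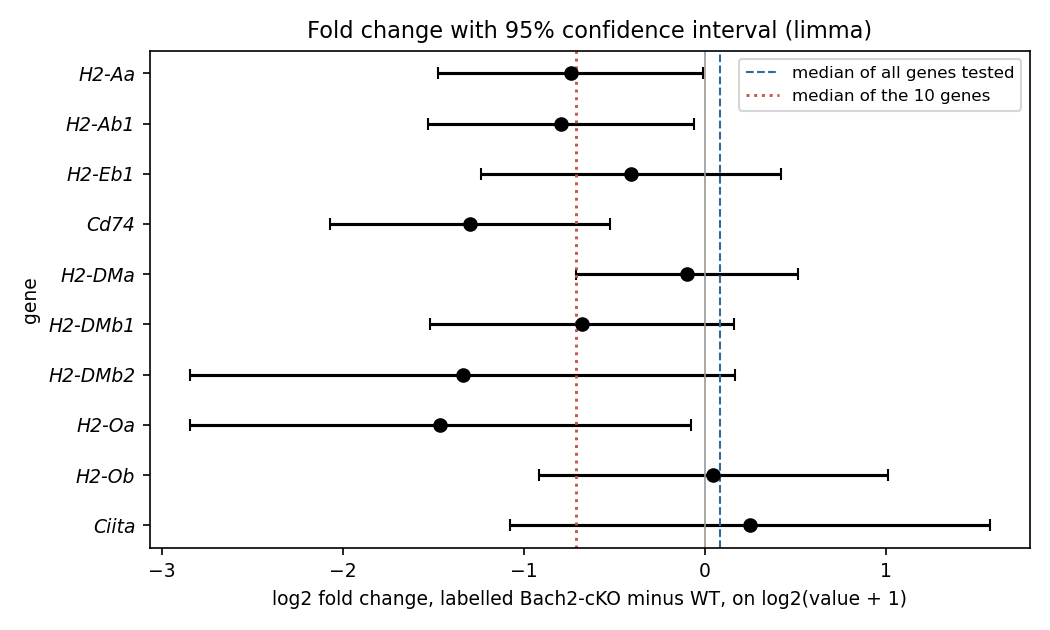
Log2 fold change (labelled Bach2-cKO minus WT, on log2(value + 1)) of each of the 10 genes from limma, with bars for the 95% confidence interval over 3 libraries in each group. The dotted line is the median of the 10 genes, -0.71, and the dashed line the median of all genes tested, 0.08; the directions of H2-Eb1, H2-DMa, H2-Ob and Ciita turned under at least 1 alternative, among scalings H2-DMa and H2-Ob with quantile normalization.

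The libraries followed an order that the labels describe only in part. H2-Aa, H2-Ab1, H2-Eb1 and Cd74 together made up 0.285%, 0.350% and 0.211% of the values of WT1, WT2 and WT3. Their share was 0.127%, 0.260% and 0.0984% in cKO1, cKO2 and cKO3. Thus cKO2 was above WT3, and the low level was found in cKO1 and cKO3. In cKO1 and in cKO3, 8 of the 10 genes were below their own mean over the 6 libraries, compared with 1 in WT1, 2 in WT2, 6 in WT3 and 2 in cKO2. Of the 10 genes, 6 were below their means in both cKO1 and cKO3 (H2-Aa, H2-Ab1, H2-Eb1, Cd74, H2-DMb2 and H2-Ob), and Cd74 was about as low in both, with deviations of -1.11 in cKO1 and -1.10 in cKO3 on the log2 scale. The sizes differed for other genes: H2-DMb2 and H2-Oa were lowest in cKO1, with deviations of -2.37 and -2.24, whereas H2-Aa, H2-Ab1, H2-Eb1 and H2-DMb1 were lowest in cKO3, where H2-DMa and H2-Oa were above their means.

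**Figure D3:**
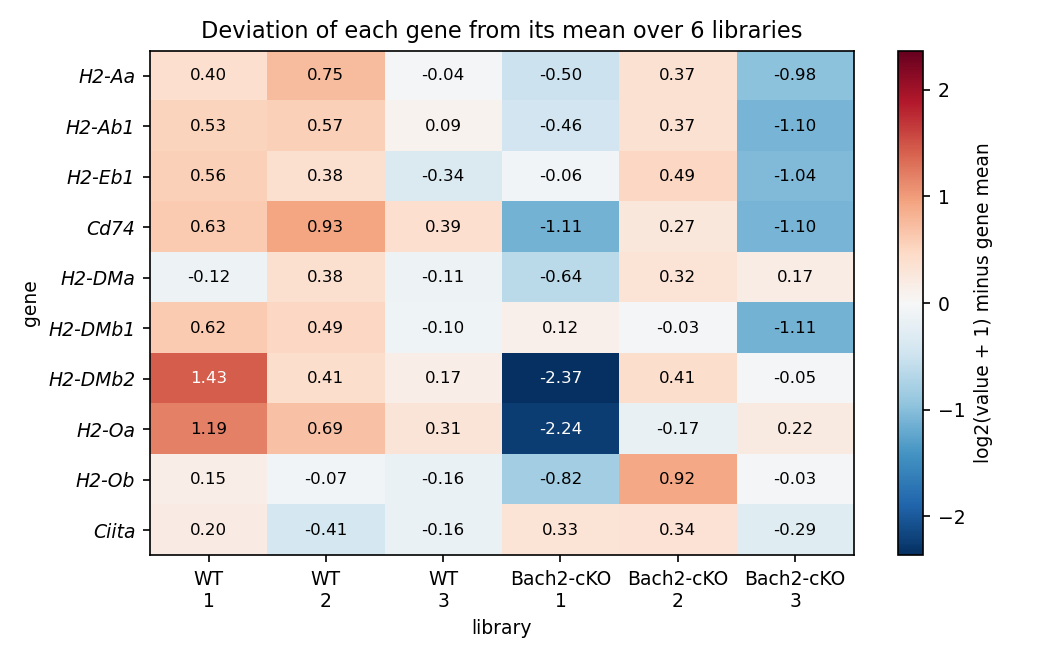
Deviation of log2(value + 1) of each gene from its own mean over the 6 libraries, with libraries in columns and genes in rows; red is above and blue below the mean. The upper rows (H2-Aa, H2-Ab1, H2-Eb1 and Cd74) share a low cKO3, and H2-DMb2 and H2-Oa share a very low cKO1.

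Covariation with Cd74 was measured over the 6 libraries on log2 values for each of the other 9 genes. The 9 relations include the difference between the groups, and all libraries share the normalization by size factors. For H2-Aa, Pearson's r was 0.94 (exact permutation p = 0.00833, adjusted over the 9 relations 0.0438) and Spearman's rho 0.89 (p = 0.0333, adjusted 0.0750). For H2-Ab1, r was 0.93 (exact permutation p = 0.00972, adjusted 0.0438) and rho again 0.89 (p = 0.0333, adjusted 0.0750). On deviations from the group means, r was 0.93 for H2-Aa and 0.89 for H2-Ab1. Without cKO1 and cKO3, the libraries farthest from the median of Cd74, r was 0.75 and 0.69 over the remaining 4 libraries, and without WT1 alone it was 0.93 and 0.92.

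Over all 6 libraries, the other genes had a lower r with Cd74 than H2-Aa and H2-Ab1. Differences between relations were not tested, and H2-DMb2 and H2-Oa had the same rho as H2-Aa and H2-Ab1. H2-DMb2 had an r of 0.74 (exact permutation p = 0.0278, adjusted 0.0833) and a rho of 0.89 (p = 0.0333, adjusted 0.0750). H2-Oa had an r of 0.70 (exact permutation p = 0.0875, adjusted 0.197), with the same rho and adjusted p as H2-DMb2. For H2-Eb1, r was 0.70 (exact permutation p = 0.139, adjusted 0.208) and rho 0.49 (p = 0.356, adjusted 0.400). Without cKO1 and cKO3, r was 0.24 for H2-DMb2, 0.27 for H2-Eb1, 0.69 for H2-Oa, 0.80 for H2-DMb1 and 0.25 for H2-DMa. Leaving out 1 library at a time moved these genes in different ways. For H2-DMb2, r was 0.55 without cKO1 and 0.92 without cKO3, and for H2-Oa 0.45 and 0.96. For H2-Eb1, r was 0.85 without cKO1 and 0.45 without cKO3, and for H2-DMb1 0.96 and 0.42. H2-DMb1 (r 0.69, exact permutation p = 0.125, adjusted 0.208; rho 0.54, p = 0.297, adjusted 0.400) and H2-DMa (r 0.50, p = 0.292, adjusted 0.375; rho 0.49, p = 0.356, adjusted 0.400) were positive over the 6 libraries, but H2-DMa had an r of -0.02 without cKO1 and 0.83 without cKO3. H2-Ob (r 0.47, exact permutation p = 0.439, adjusted 0.494; rho 0.26, p = 0.658, adjusted 0.658) was at 0.05 without cKO1 and turned to -0.59 without cKO1 and cKO3. Ciita was the only 1 of the 9 with a negative r, -0.19 (exact permutation p = 0.589, adjusted 0.589; rho -0.49, p = 0.356, adjusted 0.400), and its r was 0.18 without WT2, 0.17 without cKO1, -0.63 without cKO3 and -0.71 without cKO1 and cKO3. On deviations from the group means, r was 0.74 for H2-Eb1, 0.66 for H2-DMa, 0.56 for H2-DMb2, 0.43 for H2-DMb1, 0.37 for H2-Oa, 0.85 for H2-Ob and 0.27 for Ciita, so that the sign turned for Ciita.

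Among themselves, H2-Aa and H2-Ab1 were the most alike of all 45 pairs of the 10 genes, with an r of 0.98 over the 6 libraries. H2-DMb2 and H2-Oa followed with 0.96. The 6 pairs among H2-Aa, H2-Ab1, H2-Eb1 and Cd74 had a median r of 0.92 and a range from 0.70 to 0.98. Over all 45 pairs the median was 0.47, and 39 were positive. These values describe 6 libraries and carry no p.

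Ratios within a library do not depend on its size factor. The ratio of Cd74 to H2-Aa was 2.36, 2.28 and 2.72 in WT1 to WT3 and 1.32, 1.88 and 1.85 in cKO1 to cKO3. The ratio of Cd74 to H2-Ab1 was 2.46, 2.97 and 2.85 in the WT libraries and 1.47, 2.15 and 2.32 in the libraries labelled Bach2-cKO. For H2-Eb1 the ratio was 4.61, 6.45 and 7.32 against 2.13, 3.77 and 4.24. Cd74 was thus lower relative to each classical chain in every library labelled Bach2-cKO, including cKO2, with an exact permutation p of 0.1 each, the smallest that 3 against 3 libraries can give. By contrast, the ratios of H2-Ab1 to H2-Aa (0.767 to 0.956 in all 6 libraries) and of H2-Eb1 to H2-Aa (0.353 to 0.619) overlapped between the groups, with exact permutation p of 0.6 and 0.3. The ratios with Cd74 share their numerator, and H2-Aa and H2-Ab1 had an r of 0.98, so these ratios are not independent observations. Cd74 was also the class II gene with the lowest limma p. How often ratios of other gene pairs lie apart between the groups was not examined.

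**Figure D4:**
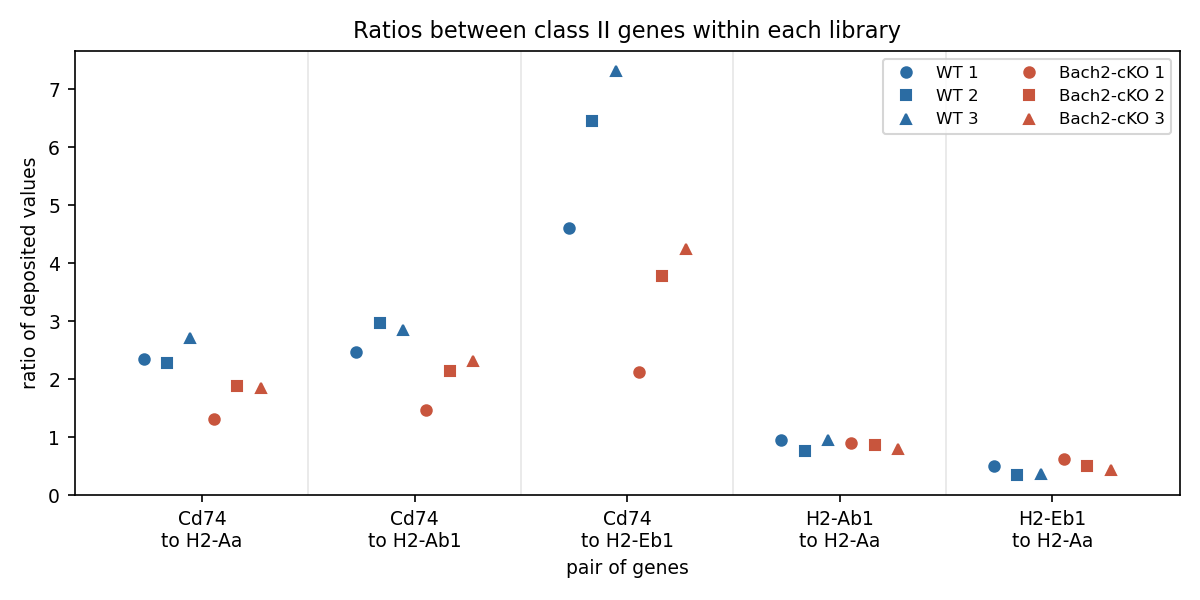
Ratio of deposited values between pairs of class II genes in each library, with WT in blue and libraries labelled Bach2-cKO in red. Every red point lies below every blue point for the 3 ratios that have Cd74 as numerator, whereas the ratios of H2-Ab1 and H2-Eb1 to H2-Aa overlap.

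By the same measure, genes outside the group were ranked by their r with the mean log2 value of H2-Aa, H2-Ab1, H2-Eb1 and Cd74, among 8949 genes with a mean value of at least 50. Among the 10 most alike were Pkig (0.96), Gpr65 (0.95), Hopx (0.95), Ist1 (0.95), Stard10 (0.95), Fam208b (0.94), Gstm1 (0.94), Cd68 (0.94) and Tpd52 (0.94). Cd68, a macrophage lysosomal protein, was at 347, 420 and 318 in the WT libraries and at 133, 339 and 138 in cKO1 to cKO3. In all, 21 of the 8949 genes had an r over 0.9 and 19 an r under -0.9.

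Genes that act with class II were taken from lists of 46 symbols, of which 41 were in the table and 40 were tested. At an unadjusted p under 0.05, 6 were higher and 5 lower in the libraries labelled Bach2-cKO, beside 10.1% and 10.2% of all genes tested, and 0 passed the limma threshold. Without WT1, 4 were higher and 6 lower, beside 9.79% and 9.43% of all genes. In the lysosomal processing list, 3 of 12 were lower and 0 higher (4 and 0 without WT1, with Lamp2 added), beside the same shares of all genes. Ctsb, encoding cathepsin B, was at 8606, 7201 and 10263 in WT1 to WT3 and at 4812, 3556 and 4901 in cKO1 to cKO3, so that the groups did not overlap (log2 fold change -0.97, adjusted p = 0.140 by limma). Lamp1 was also apart (-0.93, adjusted p = 0.140 by limma), as was Ctsh (-1.07, adjusted p = 0.222 by limma), which was at -0.64 without cKO3. Without WT1, the log2 fold changes of Ctsb, Lamp1 and Ctsh were -0.97, -0.79 and -1.24. Ctss, the cathepsin that trims the invariant chain in B cells and dendritic cells, had a log2 fold change of 0.02 and overlapping groups.

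Of the surface turnover genes, Cd83, known to hold class II on the surface by opposing the ubiquitin ligase March1, was at 1382, 882 and 1152 in the WT libraries and at 369, 372 and 780 in cKO1 to cKO3. The groups did not overlap (log2 fold change -1.24, adjusted p = 0.141 by limma, and -1.08 without WT1). March1 and March8 were tested and did not reach an unadjusted p of 0.05. Of the 8 genes of the promoter-binding complex, Nfyb was lower (-0.49, adjusted p = 0.231 by limma) and Ctcf higher (0.51, adjusted p = 0.204 by limma) at an unadjusted p under 0.05, while the 3 RFX subunit genes were not. Without WT1, Nfyb was at -0.60 and Ctcf at 0.45, the latter with an unadjusted limma p of 0.0674, and after correction for length and GC content Ctcf was at 0.34. For Nfyb, the unadjusted limma p was above 0.05 on leaving out WT2, WT3, cKO1 or cKO2 in turn.

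Of 12 regulators of Ciita, 2 were higher at an unadjusted p under 0.05 (1 without WT1) and 0 lower, beside 10.1% and 10.2% of all genes. Those higher included Ifngr2 (1.55, adjusted p = 0.219 by limma), a receptor subunit for interferon-γ, which induces Ciita. Its log2 fold change was 0.77 without WT1, and the unadjusted limma p was above 0.05 without WT1, without cKO2 or without cKO3. Within the class II region of chromosome 17, which holds 8 of the 10 genes, 3 of 5 tested neighbours were higher and 0 lower, also without WT1, beside 10.1% and 10.2% of all genes. Brd2 was at 335, 505 and 450.2 in WT1 to WT3 and at 1092, 868 and 1165 in cKO1 to cKO3 (log2 fold change 1.28, adjusted p = 0.140 by limma). Tap1 and Tap2, the peptide transporter of class I presentation, were higher by 1.16 and 1.38 on the log2 scale, with adjusted p of 0.141 and 0.140 by limma and no overlap between the groups. Once the trend of fold change with gene length and GC content was removed, Brd2 was at 0.56, Tap1 at 0.63 and Tap2 at 0.89. Without WT1 the values were 1.12, 1.08 and 1.11. Psmb8 and Psmb9, which lie beside them, had log2 fold changes of -0.01 and -0.05. H2-Eb2 was listed at 0 in WT1 and WT3 and reached 28.0 in WT2, 1.48 in cKO1, 8.04 in cKO2 and 1.02 in cKO3, and was not tested.

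Since class II is a property of antigen-presenting cells, markers of cells other than Tfh cells were examined as whole lists. Marker counts at an unadjusted p under 0.05 stand beside 10.2% of all genes lower and 10.1% higher. Without WT1 these shares were 9.43% and 9.79%. The CD4+B220- gate would remove B cells and CD8 T cells. Of 20 B cell markers, 17 were in the table and 12 were tested. Their values summed to 768, 1397 and 1138 in WT1 to WT3 and to 1041, 1065 and 816 in cKO1 to cKO3, so that the groups overlapped. The highest level per kilobase was that of Pou2af1, which Tfh cells are also known to express. Ms4a1, encoding CD20, was at 35.3, 33.7 and 45.8 in the WT libraries and at 2.96, 2.68 and 10.2 in cKO1 to cKO3, and with Fcmr it was 1 of 2 listed genes that were lower at an unadjusted p under 0.05, with 0 higher. Both were apart between the groups and neither passed the threshold, with adjusted p of 0.155 for Ms4a1 and 0.165 for Fcmr by limma. Fcmr was at 143 in WT1 and at 13.5 and 34.3 in the other WT libraries, and without WT1 its unadjusted limma p was 0.0526, while Ms4a1 was at -2.88 on the log2 scale. Without WT1, 3 listed genes were lower (Ms4a1, Cd79a and Cd79b) and 0 higher. With all libraries, Cd22, Fcer2a, Cr2, Blnk and Pou2af1 had positive log2 fold changes, none of them at an unadjusted p under 0.05.

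Of 12 macrophage or monocyte markers, all were in the table, 11 were tested, and 2 were lower and 1 higher at an unadjusted p under 0.05. They summed to 2832, 11111 and 5919 in WT1 to WT3 and to 3969.8, 8449 and 3229 in cKO1 to cKO3, with Lyz2 highest per kilobase and Itgam at 0 in WT1. WT1 was thus the lowest library for these markers and among the highest for class II, whereas the other 5 libraries came in the same order as for the summed class II chains and Cd74. That order rested largely on Lyz2. It made up 7211.5 and 3443.9 of the sums of WT2 and WT3, and 1445.4, 4395.5 and 1407.4 of those of cKO1 to cKO3. All 10 conventional dendritic cell markers were tested and 0 were below an unadjusted p of 0.05; they summed to 896, 627 and 470.0 in the WT libraries and to 396, 542 and 259.8 in cKO1 to cKO3. Cd209a had the highest mean level per kilobase, with 606 of the sum of WT1, and Clec9a was at 0 in WT1. The order of the libraries by this sum was that of the summed class II chains and Cd74, apart from an exchange of WT1 and WT2. It rested largely on Cd209a in WT1 and on Ccl22, which was at 288 in WT2 and 322 in WT3. The median log2 fold change of the list was 0.12. Without WT1, 1 dendritic cell marker was lower at an unadjusted p under 0.05 (Ccl22) and 0 higher, and of the macrophage or monocyte markers 3 were lower (Lyz2, Cd68 and Fcgr1) and 1 higher.

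Of 6 plasmacytoid dendritic cell markers, 5 were in the table and tested, with sums of 1621, 2435 and 3023 against 1652, 2202 and 1879.9, Bst2 highest per kilobase and 0 below an unadjusted p of 0.05 (2 lower without WT1, Bst2 and Irf7). The plasma cell list, with 5 of 9 in the table and 3 tested, summed to 1905, 30168 and 8342.5 in WT1 to WT3 and to 3116, 1404 and 1504.5 in cKO1 to cKO3, of which Jchain made up 28803 in WT2, with Sdc1 and Tnfrsf17 at 0 in WT1 and Tnfrsf17 also at 0 in cKO2. Xbp1 was the 1 gene of that list lower at an unadjusted p under 0.05, and without WT1 it was Jchain instead. Germinal center B cell markers, with 5 of 6 in the table and 3 tested, summed to between 31.2 in WT3 and 127 in cKO2, with Basp1 highest per kilobase, Rgs13 and Gcsam at 0 in WT1 and Gcsam also at 0 in WT3.

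Group 3 innate lymphoid cells, which also carry class II, were covered by 5 markers, all tested, that summed to between 72.6 in cKO3 and 201 in WT1, with Il22 and Ncr1 at 0 in WT1, Il23r at 0 in cKO3, Kit higher and Il23r lower at an unadjusted p under 0.05. Of 8 stromal or endothelial markers, 7 were in the table and 2 were tested; they summed to between 579 in cKO3 and 713 in WT2, mostly Pecam1, which T cells also express, and Col3a1 and Pdgfrb were at 0 in most libraries. The 2 CD8 T cell markers summed to between 176 in WT1 and 786 in WT2. The T cell list was lower in every library labelled Bach2-cKO, at 86399, 86300.0 and 111050 in WT1 to WT3 and 71936, 71041 and 84297 in cKO1 to cKO3, with Trac highest per kilobase and Cd3e, Trac, Cd28 and Cd2 lower but Cd4 and Thy1 higher at an unadjusted p under 0.05. The Tfh list overlapped between the groups, with Bcl6 and Tox2 higher and Icos lower at that level and Sh2d1a highest per kilobase. Without WT1, Il23r was no longer below an unadjusted p of 0.05, Cd8b1 and Il21 were lower at that level, and the T cell genes named were below it as before.

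**Figure D5:**
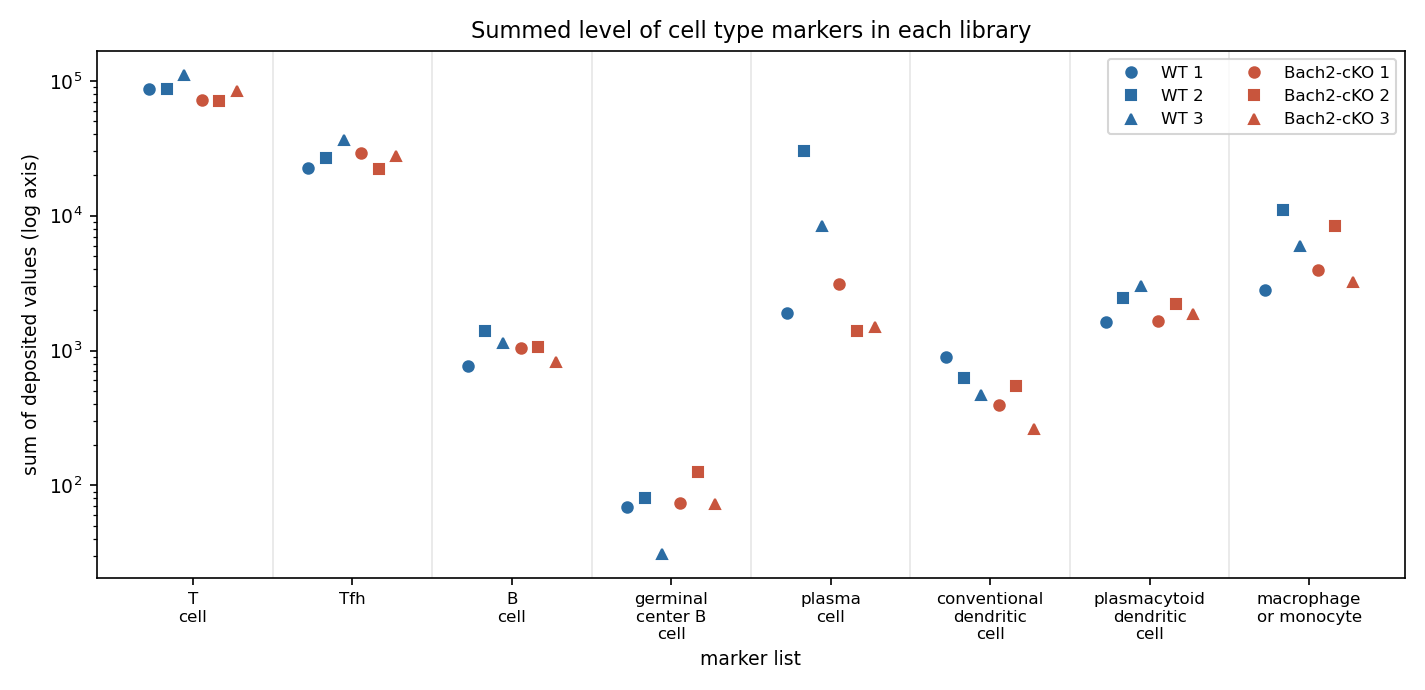
Sum of the deposited values of each marker list (log axis) in each library, with WT in blue and libraries labelled Bach2-cKO in red. The groups overlap for every list shown except the T cell list, and the plasma cell list spans from 1404 in cKO2 to 30168 in WT2.

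Over the 6 libraries, Cd74 and the summed B cell markers had an r of 0.40 (exact permutation p = 0.415, adjusted over 6 lists 0.498) and a rho of 0.37 (p = 0.497, adjusted 0.677). Without cKO1 and cKO3, r was 0.31, without WT1 it was 0.84, without WT2 it was 0.06, and without cKO3 it was 0.15. The relations with the 5 other lists were added after the values had been seen. For the conventional dendritic cell list, r was 0.83 (exact permutation p = 0.0361, adjusted 0.217) and rho 0.83 (p = 0.0583, adjusted 0.350), with an r of 0.47 once cKO1 and cKO3 were left out. For the macrophage or monocyte list, r was 0.55 (exact permutation p = 0.263, adjusted 0.471) and rho 0.31 (p = 0.564, adjusted 0.677), and r was 0.94 without WT1, 0.32 without WT2 and 0.15 without cKO1 and cKO3. The plasma cell list had an r of 0.52 (exact permutation p = 0.256, adjusted 0.471), the plasmacytoid dendritic cell list 0.48 (p = 0.314, adjusted 0.471) and the germinal center B cell list -0.07 (p = 0.889, adjusted 0.889), with rho of 0.49, 0.31 and -0.09 (p = 0.356, 0.564 and 0.919, adjusted 0.677, 0.677 and 0.919) and r without cKO1 and cKO3 of 0.72, -0.16 and 0.02. Without WT1 their r was 0.69, 0.82 and -0.06. Leaving out another library gave 0.19 for the plasma cell list without WT2, 0.28 for the plasmacytoid dendritic cell list without cKO1 and 0.25 for the germinal center B cell list without WT3. On deviations from the group means, r was 0.35 for the B cell list, 0.66 for conventional dendritic cells, 0.69 for macrophages or monocytes, 0.27 for plasmacytoid dendritic cells, 0.00 for plasma cells and 0.75 for germinal center B cells. None of the 6 relations was below an adjusted p of 0.05. The part of these other cells in the class II levels was not tested.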

How the data were processed

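RNA-seq libraries of sorted MLN Tfh cells, 3 labelled WT and 3 labelled Bach2-cKO, were analysed from the deposited table of normalized signal, in which the authors had divided read counts per gene by a size factor of each library. The sources differ on the aligner: the methods name Tophat2 with HTSeq and DESeq2, and the submitters' processing notes name STAR 2.5.2b, DESeq, DESeq2 1.20.0 and R 3.5.1, with build GRCm38. The annotation and strand setting are not given in the sources used here.

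The deposited values were tested as log2(value + 1) with limma 3.58.1 (trended variance, Benjamini-Hochberg) in R 4.3.3, using the thresholds of the methods, an adjusted p under 0.01 and a change over 2-fold. Whole reads, within 0.1 of a whole number, were recovered for 100% of the values above 0 in 5 libraries. Divided by its step of 1.01, the values of WT1 were also 100% whole. That step was taken as too near 1 by a rule set for recovered reads. Count tests (edgeR 4.0.16 and DESeq2 1.42.0) therefore ran without WT1. Library weights came from limma and the trend with length and GC content from mgcv 1.9.3. Correlations, with exact permutation over 720 pairings, and exact Poisson intervals were computed in Python 3.11.15 with scipy 1.17.1. Permutation tests were 2-sided. The fits were also run on simulated counts, where the check required only that most of the changes put in had the right direction. WT1 was simulated at the mean depth of the other libraries, so its lower number of detected genes was not modelled.

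Exon lengths, coordinates and overlaps are from GENCODE M21, matched by symbol for 14329 genes and by an older symbol for 370. Genes named are the 10 members, listed pathway and marker genes (those at an unadjusted p under 0.05 or with the highest level in their list, and defining markers), Bach2 and the 10 genes most alike. Some genes that this rule covers are not reported here. The members and lists were chosen with earlier results of these data known. Alternatives were other pseudocounts, filters, scalings, variance models, count tests, the replicate block, leaving out each library, and a correction for length and GC content.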

Additional observations from a re-analysis of the deposited data

How the results depend on the processing

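The log2 fold changes of Cd74, H2-Aa, H2-Ab1, H2-DMb1, H2-DMb2 and H2-Oa stayed negative under all 19 alternatives, with ranges from -1.76 to -0.54 for Cd74, -1.11 to -0.03 for H2-Aa, -1.18 to -0.07 for H2-Ab1, -0.91 to -0.19 for H2-DMb1, -1.88 to -0.25 for H2-DMb2 and -1.94 to -0.71 for H2-Oa. Cd74 was below an unadjusted p of 0.05 in 18 of the 19. None of the 10 genes was called under any alternative. Bach2 was higher in the libraries labelled Bach2-cKO in all 19 and was called in 2 of them. These were library weights (log2 fold change 2.36) and DESeq2 on 5 libraries (1.81). The remaining 4 genes turned: with library weights H2-Eb1 was at 0.42 and H2-DMa at 0.18, with quantile normalization H2-DMa was at 0.0028 and H2-Ob at -0.027, and once length and GC content were corrected for Ciita was at -0.45. A mean of at least 50 left Ciita untested.

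Library weights, which rest mainly on cKO2 and WT3, called 561 genes higher and 567 lower. They left 0 of the 10 genes lower and 1 higher (H2-Ob) at an unadjusted p under 0.05, beside 22.8% and 24.3% of all genes. The median log2 fold change of the 10 was then -0.046. DESeq2 on 5 libraries called 33 higher and 57 lower, with 1 of the 10 lower at an unadjusted p under 0.05 beside 9.45% of all genes. That count was 2 with quantile normalization (10.8%) and 1 with equal totals (8.22%), with no variance trend (7.83%) and with edgeR on 5 libraries (8.77%). For each of these the cause was not tested.

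Leaving out each library in turn gave 1 to 5 genes lower, beside 5.36% to 14% of all genes, a median of the 10 from -0.97 to -0.37, log2 fold changes from -0.76 to 0.011 for H2-Eb1, -0.28 to 0.20 for H2-DMa and -0.40 to 0.47 for H2-Ob, a median r with Cd74 from 0.55 to 0.83 around 0.70, and an r of Cd74 with B cell markers from 0.06 to 0.84. Over all genes tested, deviations of same-numbered libraries from their group means correlated at -0.07, 0.12 and -0.04. These values do not show whether the samples were paired. H2-Aa, H2-Ab1, H2-Eb1 and Cd74 had mean deviations from their own means of 0.53, 0.66 and 0.03 in WT1 to WT3. In cKO1 to cKO3 these were -0.53, 0.37 and -1.055, so replicate 2 was highest and replicate 3 lowest in both groups. Pairing by number was not tested. With the replicate block, 0 genes were called and 3 of the 10 were lower at an unadjusted p under 0.05, beside 9.15% of all genes. The block left the log2 fold changes of the 10 as they were (-1.30 for Cd74) and altered only their spread. The unadjusted limma p was 0.00089 for Cd74, 0.0072 for H2-Aa, 0.011 for H2-Ab1 and 0.0587 for H2-Oa. Without the block it was 0.00374, 0.0479, 0.0362 and 0.0403. The lowest adjusted p of the 10 with the block was 0.219 by limma. Depth limits what can be said of H2-DMb2 and H2-Oa in cKO1, with 15 and 13 reads, and of Ciita.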
